A study of Mus musculus with 6 samples.

Results

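The genes described here build and anchor the actin cytoskeleton. They are 43 members chosen by symbol out of 24493 genes in a table of transcript abundance, and all 43 are in the table. Earlier results of these data were known when they were chosen. They were placed in 4 groups: 8 actins and myosins, 10 of tropomyosin and calponin type, 13 filamins, crosslinkers and other actin binders, and 12 focal adhesion adaptors.

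RNA sequencing covered 6 libraries of KPCY cells, mouse pancreatic tumour cells of the strain C57BL/6. The cells carried a non-targeting short hairpin RNA (shNT, n = 2), shPthlh oligo #1 (called hairpin 1 here, n = 2) or shPthlh oligo #2 (hairpin 2, n = 2). All 3 groups were thus transduced, and both shPthlh hairpins are directed against Pthlh, which encodes parathyroid hormone-related protein. The study set cells with lowered Pthlh against cells with normal Pthlh in 2 parental clones, but no label ties a library to a clone, so hairpin and clone cannot be told apart. The labels call the cells sorted in vivo tumour cells, while the protocols describe culture in DMEM. Whether replicates are separate cultures or animals is not said. The p-values reflect the spread of these libraries alone, and that spread may be technical.

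Actin assembles into filaments, and non-muscle myosin II pulls on these filaments to give the cell tension. Tropomyosins, calponins and caldesmon lie along the filaments and affect which other proteins can bind, while filamins, alpha-actinins and fascin tie filaments into networks and bundles. At focal adhesions, talin and kindlins bind the tails of integrins, and vinculin, zyxin, paxillin and the ILK complex link them to actin. Many genes of this machinery have a CArG box, the binding sequence of the transcription factor SRF, near their start.

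Promoter sequences were at hand for 38 of the 43 members (RefSeq, build GRCm38.p6). In the 250 bases before the start, a CArG box was present in 7 of these 38 genes (18.4%), which were Actg1, Cnn2, Fermt2, Lima1, Myl6, Myl9 and Vcl. Among all 27025 genes with such a sequence the share was 1.62%; counted by promoter, it was 14.6% of 48 member promoters and 1.47% of all 32851. The pattern that defines the CArG box is its own reverse complement, although a single match need not be, so 1 search covers both strands. A match is a run of letters and not a measured site. The hexamer GGAATG, bound by TEAD factors and searched on both strands, was in 11 of the 38 members (28.9%) and in 14.4% of all genes. The 5 windows that follow are of genes with a call in the results. Not shown are Myl6, which was tested and not called in any comparison, and Myl9, which was not tested. Whether the box goes with a change was not tested. The CArG box is in capitals, and each window is written 5′ to 3′ in the direction of its gene. Cnn2 is at chr10:79988504-79988583 (plus strand), Vcl at chr14:20929148-20929220 (plus), Fermt2 at chr14:45530220-45530309 (minus), Actg1 at chr11:120348546-120348625 (minus) and Lima1 at chr15:99820150-99820236 (minus).
Cnn2: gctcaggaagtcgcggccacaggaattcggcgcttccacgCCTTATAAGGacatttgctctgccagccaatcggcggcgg
Vcl: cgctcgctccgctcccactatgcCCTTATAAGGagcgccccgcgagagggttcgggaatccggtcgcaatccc
Fermt2: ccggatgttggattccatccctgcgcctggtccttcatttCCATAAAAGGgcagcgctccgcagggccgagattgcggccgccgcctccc
Actg1: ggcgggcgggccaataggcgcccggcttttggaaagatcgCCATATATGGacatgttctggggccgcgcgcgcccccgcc
Lima1: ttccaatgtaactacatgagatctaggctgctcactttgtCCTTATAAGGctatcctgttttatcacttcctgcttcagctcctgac
Cnn2, Vcl and Lima1 hold the same CArG letters, 56, 227 and 47 bases before the starts in the RefSeq promoter table. In Fermt2 the box begins 204 bases and in Actg1 90 bases before that start. The start used for Vcl is the first base of its GENCODE gene span. Those used for Cnn2, Fermt2, Actg1 and Lima1 lie inside their GENCODE gene spans.

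Values are TPM, transcript counts set to a fixed total per library and scaled for transcript length, so levels of different genes can be compared. TPM values do not show read numbers, so the depth of the libraries is unknown. The targeted gene Pthlh read 0.752 and 0.966 TPM for shNT, 0 and 0.106 for hairpin 1, and 0.0423 and 0.263 for hairpin 2. It did not reach the level required for testing; in a fit of all genes it was at -0.82 with hairpin 1 (log2; limma adjusted p = 0.00837) and at -0.69 with hairpin 2, which did not pass (limma adjusted p = 0.0583). The small-RNA entry Mir6236 took 19.7% to 34.1% of all TPM, most in the shNT libraries, and the TPM of all other genes share what is left. The median of all genes in the knockdown comparison was at 0.097 (log2) on deposited TPM, at 0.0067 after median-ratio scaling, which aligns the typical gene between libraries, and at -0.045 once the 1278 small-RNA entries were removed. Epithelial markers (4 keratins, Cdh1 and Epcam) summed to 3986 to 4145 TPM for shNT, 4379 to 4447 for hairpin 1 and 3755 to 3845 for hairpin 2. Among them Krt19 averaged 426, 989 and 436 TPM and Krt18 1478, 1094 and 1345 TPM in that order, their part in the results on the members was not tested, and Epcam itself was at no more than 0.605 TPM in any library.

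Several members also mark smooth muscle cells and fibroblasts, so other markers of these cells were read beside them. All 8 fibroblast markers were below 1 TPM in every library (summed 0.286 to 0.522), with Lum and Fap at 0 throughout. Of 8 smooth muscle and pericyte markers 7 were below 1 TPM as well, among them Myh11 with a highest value of 0.0390 TPM. The exception was Smtn, an actin-binding smoothelin, at 19.3 to 40.9 TPM, and the list summed to 31.3 to 35.3 TPM for shNT, 19.7 to 21.3 for hairpin 1 and 41.0 to 41.2 for hairpin 2. Its part in the results on the members was not tested. Myeloid markers summed to 1.33 to 2.86 TPM, mostly Cd68, and endothelial markers to 0.0182 to 0.117 TPM. In bulk RNA, fewer cells of a type and less RNA per cell cannot be told apart.

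The members made up 1.34% to 1.57% of all TPM. Actb, the cytoplasmic beta-actin, was the highest of them in shNT (3115 ± 192 TPM, SD, n = 2), followed by the filament-severing cofilin Cfl1 (2425 ± 121), the gamma-actin Actg1 (1746 ± 65.5) and the actin-monomer binder Pfn1 (1648 ± 112). The shNT libraries of Actg1 and Pfn1 overlap, although Actg1 was the higher within each of them (1699.9 and 1793 against 1569 and 1728 TPM). Of the 43 members, 39 reached 1 TPM in at least 2 libraries and were tested, and 37 did so in all 6.

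The 4 members that were not tested were Acta2, Cnn1, Myl9 and Tln2. Acta2, the smooth muscle actin often used to mark myofibroblasts, was at 0 to 0.102 TPM over the 6 libraries, and Cnn1, the smooth muscle calponin, at 0 to 0.132 TPM. Myl9, a regulatory light chain of smooth muscle type, read 0.509 and 0.406 TPM for shNT, 0.0558 and 0 for hairpin 1, and was listed at 0 in both hairpin 2 libraries. Tln2, the second talin gene, was at 0.0751 to 0.192 TPM.

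Most members that changed were lower in the cells with Pthlh hairpins. In the knockdown comparison, which sets the mean of both hairpin groups against shNT, 23 of 39 tested members fell and 4 rose at an adjusted p below 0.05 by limma, a linear model that shares variances across genes. Over all 11549 genes tested, 12.1% fell and 27.3% rose. After median-ratio scaling 27 members fell and 2 rose, against 18.8% and 15.1% of all genes. The median difference of the members was -0.26 (log2), which is -0.36 relative to the median of all genes. All 4 hairpin libraries lay below both shNT libraries in 21 members (10.4% of all genes) and above them in 5 (30.3%). As the members were chosen with earlier results known, these counts beside shares of all genes are description, not a test of the set.

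With hairpin 1 alone 26 of 39 members fell and 5 rose by limma (all genes 18.1% and 32.1%); after median-ratio scaling these were 28 and 2 (all genes 24.4% and 22.6%). With hairpin 2 alone 9 fell and 1 rose (all genes 3% and 6.62%), or 15 and 0 after that scaling (all genes 4.82% and 2.12%). The median member was at -0.52 relative to all genes with hairpin 1 and at -0.23 with hairpin 2. Libraries did not overlap in 29 members lower and 9 higher with hairpin 1 (all genes 28.1% and 48.8%), and in 24 lower and 10 higher with hairpin 2 (all genes 16.3% and 45.5%). Both sets of values are measured from the same shNT libraries and are not independent.

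The hairpins also differed from each other. Set directly against hairpin 1, hairpin 2 had 25 members higher and 4 lower by limma (all genes 19.9% and 20.2%), with a median of 0.27 relative to all genes. After median-ratio scaling 25 were higher and 3 lower (all genes 20.5% and 19.4%). Libraries of the hairpins did not overlap in 28 members higher with hairpin 2 and 8 lower (all genes 37.8% and 39.2%).

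These calls take the spread within each hairpin group as the error. With the 4 hairpin libraries pooled as 1 group, limma called 0 of 39 members (lowest adjusted p = 0.0987, for Csrp1). Of the members 13 (33.3%) then had an unadjusted p under 0.05, against 22.2% of all genes, of which 1 was called. The hairpin 2 calls were lost without either of its libraries, which leaves 1 library in that group. The values themselves moved little. Dbn1, at -1.24 (log2) as designed, was at -1.28 without replicate 1 and -1.19 without replicate 2. Fermt2, at -1.09, was at -1.08 and -1.09, and Tpm1, at -0.47, was at -0.46 and -0.49. Tpm1 also lost its call without either hairpin 1 library, which is not part of that comparison, with its value unchanged. Without hairpin 2 replicate 1 limma called 0 of 39 members, with 15 at unadjusted p under 0.05, and without replicate 2 it called 0, with 16. Over all genes tested, these fits called 6 and 11.

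Counts of calls moved with other libraries too. The shares of all genes called in the fits below are not given, so a shift over the whole table cannot be told apart from a shift of the members. Members lower with hairpin 2 numbered 17 when shNT replicate 2 was left out and 2 when either hairpin 1 library was; members higher with hairpin 2 numbered 3 and 5 without shNT replicate 1 and replicate 2, and 0 without any 1 hairpin library. Members called higher fell from 4 to 2 in the knockdown comparison when any 1 hairpin library was left out. With hairpin 1 they went from 5 to 2 without either hairpin 1 library and to 3 without either hairpin 2 library. Between the hairpins, members called higher went from 25 to 16 without hairpin 1 replicate 2 or either hairpin 2 library, and those called lower from 4 to 2 without either hairpin 1 library or hairpin 2 replicate 1.

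**Figure D1:**
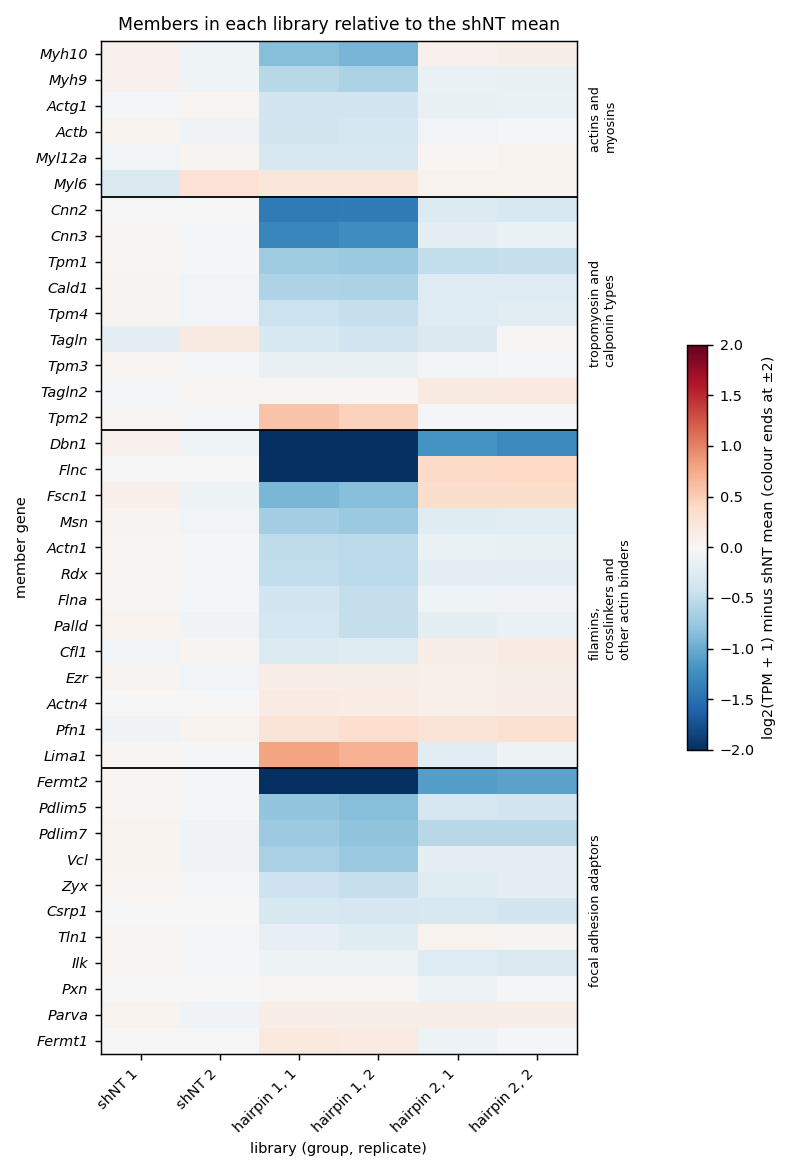
Each row is 1 of the 39 tested members and each column 1 library; colour is log2(TPM + 1) minus the mean of the 2 shNT libraries, with the colour scale ending at -2 and 2. Dbn1, Fermt2 and Flnc are the rows farthest below shNT with hairpin 1, at -2.75, -2.50 and -2.48.

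Among the actins and myosins 3 of 6 tested genes fell and 0 rose in the knockdown comparison (all genes 12.1% and 27.3%). After median-ratio scaling 5 fell (all genes 18.8%). There were 5 that fell with hairpin 1 (all genes 18.1%), while for hairpin 2 limma called 0 of 6 on either scale. Of all genes 3% fell and 6.62% rose with hairpin 2, or 4.82% and 2.12% after median-ratio scaling. Myh10, the heavy chain of non-muscle myosin IIB (chromosome 11, 68691559 to 68816632, mm10), read 24.4 and 21.5 TPM for shNT, 12.2 and 11.5 for hairpin 1, and 24.5 and 24.9 for hairpin 2. Both hairpin 1 libraries were thus well below the other 4. Myh10 fell by 0.90 ± 0.071 with hairpin 1 (log2, SE; limma adjusted p = 0.000523). With hairpin 2 it was at 0.10 (95% interval -0.073 to 0.28; limma adjusted p = 0.350), a value that turned negative without small-RNA entries (-0.026), and between the hairpins at 1.00 ± 0.071 (limma adjusted p = 0.000547).

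Myh9, the heavy chain of non-muscle myosin IIA, was the more abundant, at 164 and 147 TPM for shNT, 106 and 99.8 for hairpin 1, and 141 and 139.8 for hairpin 2. Myh9 fell by 0.59 ± 0.066 with hairpin 1 (log2, SE; limma adjusted p = 0.00146) and did not pass with hairpin 2 (-0.14; limma adjusted p = 0.196). The hairpin 2 libraries were below both shNT libraries, but by less than the gap between those 2. Without shNT replicate 2 the value with hairpin 2 was -0.23 and passed (limma adjusted p = 0.0270).

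The cytoplasmic actins moved less. Actb read 3251 and 2979 TPM for shNT, 2425 and 2432 for hairpin 1, and 2999 and 3037 for hairpin 2, so that only hairpin 1 lay outside the shNT range. It fell by 0.36 ± 0.085 with hairpin 1 (log2, SE; limma adjusted p = 0.0177), a call lost when any 1 hairpin library was left out (0.0611 to 0.132). In the knockdown comparison Actb was at -0.20 (limma adjusted p = 0.0793); it passed after median-ratio scaling (-0.30; 0.0259), without small-RNA entries (-0.36; 0.0139) and without shNT replicate 1 (-0.14; 0.0291) or replicate 2 (-0.26; 0.00333).

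Actg1 read 1699.9 and 1793 TPM for shNT, 1333 and 1343 for hairpin 1, and 1568 and 1591 for hairpin 2. Its 3 groups did not overlap. Actg1 fell by 0.26 ± 0.058 in the knockdown comparison (log2, SE; limma adjusted p = 0.0186), a call lost when any 1 hairpin library was left out (0.0790 to 0.0918). The fall of -0.38 with hairpin 1 (limma adjusted p = 0.00608) was lost without either hairpin 1 library (0.0613 to 0.0649). With hairpin 2 it was at -0.14 (limma adjusted p = 0.199), which passed without shNT replicate 1 (-0.18; 0.0442). Actb and Actg1 share 31% and 47.2% of their 31-base words with transcripts of other genes, so reads can be split with near-identical copies and these values are uncertain.

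The myosin light chains gave different pictures. Myl12a, a regulatory light chain, read 276 and 299.8 TPM for shNT, 231 and 231 for hairpin 1, and 296 and 301 for hairpin 2. It fell by 0.32 ± 0.055 with hairpin 1 (log2, SE; limma adjusted p = 0.00608) and was at 0.054 with hairpin 2 (95% interval -0.083 to 0.19; limma adjusted p = 0.527), a value that turned negative after median-ratio scaling (-0.041). Its value of -0.13 in the knockdown comparison (limma adjusted p = 0.0780) passed after that scaling (-0.23; 0.0132) and without shNT replicate 1 (-0.19; 0.0118). Myl6, the essential light chain, differed so much between the shNT libraries (668 and 1004 TPM) that all hairpin libraries, at 960.0 and 957 for hairpin 1 and 862 and 859 for hairpin 2, lay between them. Myl12a and Myl6 share 26.5% and 22.3% of their 31-base words with other genes.

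Of tropomyosin and calponin types 5 of 9 tested genes fell and 1 rose in the knockdown comparison (all genes 12.1% and 27.3%). With hairpin 1, 5 fell and 1 rose (all genes 18.1% and 32.1%), and with hairpin 2, 3 fell (all genes 3%). Cnn2 (chromosome 10, 79988584 to 79996062) and Cnn3 (chromosome 3, 121426497 to 121458207), the calponins found outside smooth muscle, had the largest differences. Cnn2 read 77.9 and 79.6 TPM for shNT, 29.0 and 29.2 for hairpin 1, and 64.8 and 63.1 for hairpin 2, and the 3 groups did not overlap. Its mean was 36.9% of shNT with hairpin 1 and 81.3% with hairpin 2. Cnn2 fell by 0.85 ± 0.035 in the knockdown comparison (log2, SE; limma adjusted p = 0.000290). It fell by 1.41 with hairpin 1 (limma adjusted p = 3.38e-05) and fell by 0.30 with hairpin 2 (limma adjusted p = 0.0226), the latter lost when any 1 hairpin library was left out (0.0707 to 0.156).

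Cnn3 was the more abundant calponin, at 203 and 198 TPM for shNT, 80.9 and 84.1 for hairpin 1, and 177 and 182 for hairpin 2. Its 3 groups did not overlap either. Cnn3 fell by 1.27 ± 0.045 with hairpin 1 (log2, SE; limma adjusted p = 6.85e-05). With hairpin 2 it was at -0.16 without passing (limma adjusted p = 0.0805), though it passed after median-ratio scaling (-0.26; 0.0404) and without shNT replicate 2 (-0.18; 0.0413). The direct difference of hairpin 2 from hairpin 1 was 1.11 ± 0.041 for Cnn2 and 1.11 ± 0.045 for Cnn3 (log2, SE; limma adjusted p = 8.84e-05 and 0.000118). Of Cnn3, 36.0% of 31-base words occur in transcripts of other genes.

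Tpm1, a tropomyosin with muscle and non-muscle isoforms that TPM per gene does not separate (chromosome 9, 67022590 to 67049406), read 723 and 689 TPM for shNT, 429 and 423 for hairpin 1, and 502 and 513 for hairpin 2. All 4 hairpin libraries were well below shNT, and those of hairpin 1 were the lowest. Tpm1 fell by 0.73 ± 0.053 with hairpin 1 and fell by 0.47 ± 0.053 with hairpin 2 (log2, SE; limma adjusted p = 0.000424 and 0.0154). The call with hairpin 2 was lost when any 1 hairpin library was left out (0.0641 to 0.147), as was that of 0.25 between the hairpins (limma adjusted p = 0.0146, then 0.0841 to 0.112). The median gene of chromosome 9 was itself at -0.24 with hairpin 1 and -0.18 with hairpin 2 relative to all genes. With each chromosome centred on its median, Tpm1 was at -0.59 and -0.38 with hairpins 1 and 2 (log2; limma adjusted p = 0.000890 and 0.0257), so both calls held.

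Tpm2 went the other way with hairpin 1. It read 20.8 and 20.1 TPM for shNT, 30.9 and 28.6 for hairpin 1, and 19.9 and 20.2 for hairpin 2, so that only the hairpin 1 libraries stood apart. Tpm2 rose by 0.52 ± 0.053 with hairpin 1 (log2, SE; limma adjusted p = 0.00113), was at -0.026 with hairpin 2 (95% interval -0.16 to 0.11; limma adjusted p = 0.764), and at -0.54 ± 0.053 between the hairpins (limma adjusted p = 0.00133). Its call in the knockdown comparison (0.25; limma adjusted p = 0.0118) was lost without small-RNA entries (0.097; 0.484).

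Both Tpm4 and Cald1 fell as well. Tpm4, a further non-muscle tropomyosin, fell by 0.35 in the knockdown comparison (log2; limma adjusted p = 0.00578), with means of 477, 350.2 and 402 TPM for shNT, hairpin 1 and hairpin 2. Cald1, caldesmon, which restrains myosin on the filament, fell by 0.63 with hairpin 1 and fell by 0.26 with hairpin 2 (limma adjusted p = 0.000528 and 0.0381), the latter lost without any 1 library other than shNT replicate 2 (0.0509 to 0.190). Members that did not pass in the knockdown comparison were Tpm3, Tagln and Tagln2. Tagln, transgelin, a smooth muscle marker, was at 0.970 to 1.90 TPM over all libraries. Of Tagln, 52.9% of 31-base words occur in transcripts of other genes, chiefly Gm48529, so its values are uncertain. Tagln2, its relative in other cells, was at 809 to 946 TPM, lowest in shNT and highest with hairpin 2.

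In the group of filamins, crosslinkers and other actin binders 8 of 13 members fell and 3 rose in the knockdown comparison (all genes 12.1% and 27.3%). After median-ratio scaling 8 fell and 1 rose (all genes 18.8% and 15.1%). There were 9 that fell and 3 that rose with hairpin 1 (all genes 18.1% and 32.1%). With hairpin 2, 1 fell and 1 rose (all genes 3% and 6.62%). Dbn1, drebrin, which stabilises filaments (chromosome 13, 55473429 to 55488111), read 32.2 and 28.7 TPM for shNT, 3.55 and 3.80 for hairpin 1, and 12.7 and 11.9 for hairpin 2. The groups were far apart, in the order shNT, hairpin 2, hairpin 1, with means at 40.5% and 12.1% of shNT for hairpins 2 and 1. Besides its falls of -2.75 ± 0.076 with hairpin 1 and -1.24 ± 0.076 with hairpin 2 (log2, SE; limma adjusted p = 3.17e-05 and 0.00511), Dbn1 was higher by 1.51 ± 0.076 with hairpin 2 than with hairpin 1 (limma adjusted p = 0.000219).

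Flnc, the filamin best known from striated muscle (chromosome 6, 29433256 to 29461883), had the largest difference between the hairpins of the 39 tested members. It read 18.0 and 18.1 TPM for shNT, 2.81 and 2.06 for hairpin 1, and 23.9 and 24.2 for hairpin 2. The mean was 13.5% of shNT with hairpin 1 and 133% with hairpin 2. Flnc fell by 2.48 ± 0.11 with hairpin 1 (log2, SE; limma adjusted p = 0.000110) and was at 0.40 with hairpin 2 without passing (95% interval 0.13 to 0.66; limma adjusted p = 0.0713). Hairpin 2 was 2.88 ± 0.11 above hairpin 1 (limma adjusted p = 8.87e-05), and the value of -1.04 in the knockdown comparison is the mean of values of opposite sign. Flna, the widely expressed filamin, fell by 0.43 with hairpin 1 (limma adjusted p = 0.00160), with means of 229, 169.8 and 217 TPM for shNT, hairpin 1 and hairpin 2.

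Fscn1, fascin, which bundles filaments in filopodia and invasive protrusions (chromosome 5, 142960343 to 142973185), was the 1 member of 39 with limma calls in opposite directions. It read 220.0 and 191 TPM for shNT, 109 and 113 for hairpin 1, and 262 and 262 for hairpin 2. The 3 groups did not overlap. Fscn1 fell by 0.88 ± 0.075 with hairpin 1 (log2, SE; limma adjusted p = 0.000623) and rose by 0.35 ± 0.075 with hairpin 2 (limma adjusted p = 0.0454). The rise was not called after median-ratio scaling (0.26; limma adjusted p = 0.118), without small-RNA entries (0.22; 0.348), or when any 1 hairpin library was left out (0.104 to 0.210). The difference between the hairpins was 1.24 ± 0.075 (limma adjusted p = 0.000349). The fall of -0.26 in the knockdown comparison (limma adjusted p = 0.0254) was lost when any 1 hairpin library was left out (0.0681 to 0.0828).

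Ezrin, radixin and moesin link filaments to the plasma membrane. Msn, moesin, read 212 and 199 TPM for shNT, 128 and 122 for hairpin 1, and 174 and 177 for hairpin 2. It fell by 0.71 ± 0.053 with hairpin 1 (log2, SE; limma adjusted p = 0.000453) and was just outside the threshold with hairpin 2 (-0.22; limma adjusted p = 0.0564), which it passed after median-ratio scaling (-0.32; 0.0312) and without shNT replicate 2 (-0.27; 0.0140). Rdx, radixin, fell by 0.51 with hairpin 1 (limma adjusted p = 0.000805), from 53.3 ± 2.07 to 37.1 ± 0.946 TPM (SD, n = 2). Ezr, ezrin, the highest of the 3, read 449 and 415 TPM for shNT, 472 and 471 for hairpin 1, and 463 and 467 for hairpin 2, and passed in none of the 4 comparisons.

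Of the alpha-actinins, Actn1 fell by 0.52 with hairpin 1 (limma adjusted p = 0.000668), from 123 ± 4.40 to 85.6 ± 1.65 TPM (SD, n = 2). Actn4 was at 177 ± 1.64 TPM for shNT and 197 ± 1.81 for hairpin 1. Its value of 0.13 in the knockdown comparison (limma adjusted p = 0.0346) turned to -0.023 without small-RNA entries and to -0.054 after centring each chromosome on its median, and the call was lost without any 1 hairpin library (0.0937 to 0.125). Palld, palladin, a scaffold of stress fibres, fell by 0.29 in the knockdown comparison (limma adjusted p = 0.0169), a call lost without shNT replicate 1 (0.0535), hairpin 1 replicate 2 (0.0501) or hairpin 2 replicate 1 (0.0568).

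Lima1, also called EPLIN, a LIM protein that stabilises filaments and links them to cadherin junctions (chromosome 15, 99778470 to 99875456), was higher with hairpin 1. It read 39.2 and 37.0 TPM for shNT, 66.4 and 62.4 for hairpin 1, and 32.5 and 35.4 for hairpin 2. Lima1 rose by 0.74 with hairpin 1 (log2; limma adjusted p = 0.000644) and was at -0.90 in hairpin 2 relative to hairpin 1 (limma adjusted p = 0.000526). The value of 0.29 in the knockdown comparison (limma adjusted p = 0.0123) was not called without small-RNA entries (0.14; 0.312).

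Profilin and cofilin feed actin monomers into and out of filaments. Pfn1, profilin, was at 2029 ± 77.8 TPM with hairpin 1 and 1996 ± 53.8 with hairpin 2, against 1648 ± 112 for shNT (SD, n = 2). Its call in the knockdown comparison (0.29; limma adjusted p = 0.0272) was lost after median-ratio scaling (0.19; 0.0817) and without any 1 hairpin library (0.0847 to 0.112). Cfl1, cofilin, fell by 0.26 with hairpin 1 (limma adjusted p = 0.0411), a call lost without any 1 hairpin library (0.110 to 0.238), and its means were 2425, 2027 and 2669 TPM for shNT, hairpin 1 and hairpin 2. Of Cfl1, 25.6% of 31-base words occur in transcripts of other genes.

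**Figure D2:**
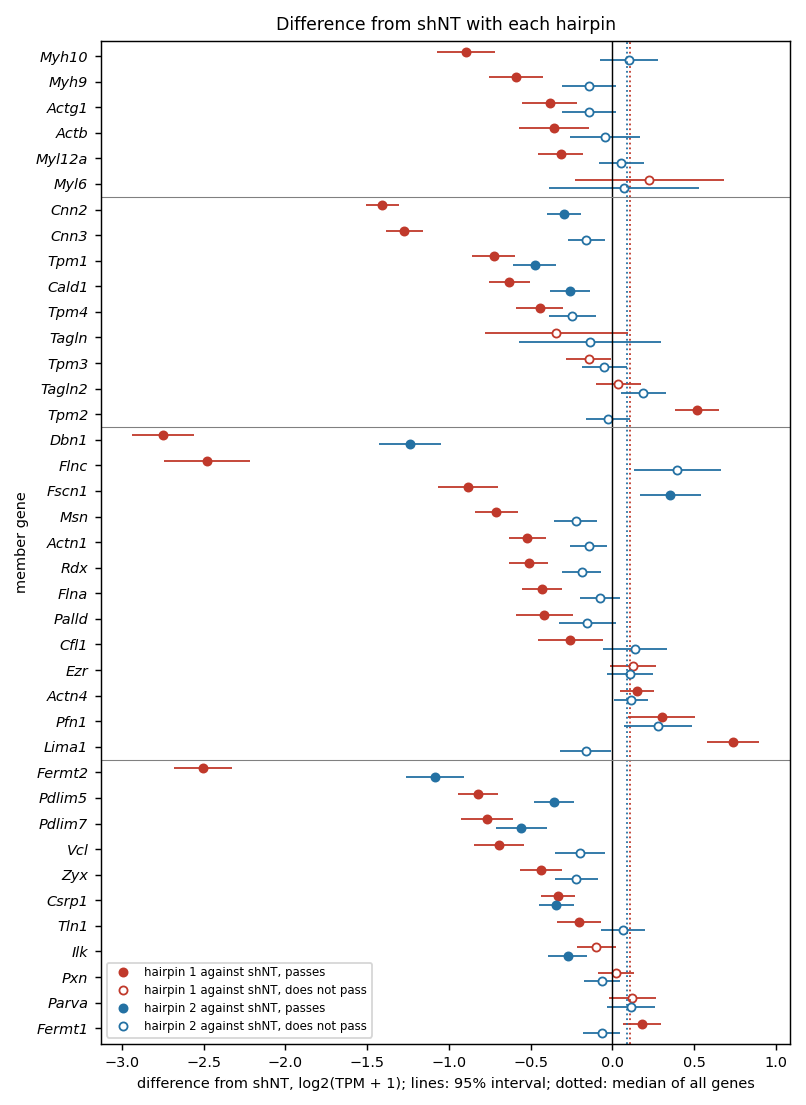
Differences from shNT on the log2(TPM + 1) scale for the 39 tested members, with 95% intervals; red is hairpin 1, blue is hairpin 2, filled points passed limma at an adjusted p below 0.05, and dotted lines mark the median of all genes at 0.11 and 0.088. Dbn1 and Fermt2 lie farthest to the left, and Lima1 (0.74) and Tpm2 (0.52) lie to the right with hairpin 1.

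Among focal adhesion adaptors 7 of 11 tested genes fell and 0 rose in the knockdown comparison (all genes 12.1% and 27.3%). With hairpin 1, 7 fell and 1 rose (all genes 18.1% and 32.1%), and with hairpin 2, 5 fell (all genes 3%). Fermt2, kindlin-2, which activates integrins together with talin (chromosome 14, 45458795 to 45530118), read 10.1 and 9.57 TPM for shNT, 0.902 and 0.925 for hairpin 1, and 4.08 and 4.14 for hairpin 2. The groups were well separated, with means at 9.27% and 41.7% of shNT for hairpins 1 and 2. Besides its falls of -2.50 ± 0.071 with hairpin 1 and -1.09 ± 0.071 with hairpin 2 (log2, SE; limma adjusted p = 3.17e-05 and 0.00511), Fermt2 was higher by 1.42 ± 0.071 with hairpin 2 than with hairpin 1 (limma adjusted p = 0.000219). The hairpin 2 calls of Fermt2 and of Dbn1 were lost without either hairpin 2 library, at a limma adjusted p of 0.0733 without replicate 1 and 0.0648 without replicate 2 for both genes.

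Fermt1, kindlin-1, the kindlin of epithelia, was at 30.6 ± 0.455 TPM for shNT, 34.9 ± 0.599 for hairpin 1 and 29.2 ± 0.998 for hairpin 2 (SD, n = 2). Its value of 0.18 with hairpin 1 (log2; limma adjusted p = 0.0212) was not called after median-ratio scaling (0.081; 0.184) or without either hairpin 1 library (0.0760 to 0.115). The median gene of chromosome 2, which holds Fermt1, was itself at -0.37 relative to all genes with hairpin 1. After chromosome centring Fermt1 was at 0.45 with hairpin 1 (limma adjusted p = 0.00136), and without small-RNA entries at 0.0098 (0.950). Hairpin 2 was called lower than hairpin 1 (-0.25), also after centring (-0.53; limma adjusted p = 0.00107) but not without small-RNA entries (-0.21; 0.142). Fermt2 made up 24.3% ± 0.462 of the summed kindlin TPM for shNT, 2.55% ± 0.0861 for hairpin 1 and 12.3% ± 0.262 for hairpin 2 (SD, n = 2). These shares are formed within each library and do not depend on its scaling.

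Pdlim7, also called enigma, a PDZ and LIM domain protein of stress fibres (chromosome 13, 55495795 to 55513676), read 63.6 and 57.0 TPM for shNT, 35.9 and 34.1 for hairpin 1, and 40.8 and 40.5 for hairpin 2. Both hairpins were well below shNT and near each other. Pdlim7 fell by 0.77 ± 0.064 and fell by 0.56 ± 0.064 with hairpins 1 and 2 (log2, SE; limma adjusted p = 0.000596 and 0.0161). The call with hairpin 2 was lost when any 1 hairpin library was left out (0.0533 to 0.132), as was that of 0.21 between the hairpins (limma adjusted p = 0.0458, then 0.106 to 0.206).

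Its relative Pdlim5 read 55.8 and 53.1 TPM for shNT, 30.97 and 29.7 for hairpin 1, and 43.02 and 41.5 for hairpin 2. Here the hairpin 2 libraries lay between shNT and hairpin 1. Pdlim5 fell by 0.82 ± 0.049 with hairpin 1 and fell by 0.36 ± 0.049 with hairpin 2 (log2, SE; limma adjusted p = 0.000250 and 0.0227), the latter lost when any 1 hairpin library was left out (0.0656 to 0.155). The hairpins were 0.47 ± 0.049 apart (limma adjusted p = 0.00167).

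Vcl, vinculin, which reinforces the link of talin to actin under tension (chromosome 14, 20929398 to 21033676), read 117 and 107 TPM for shNT, 71.2 and 66.6 for hairpin 1, and 98.1 and 97.5 for hairpin 2. It fell by 0.69 ± 0.061 with hairpin 1 (log2, SE; limma adjusted p = 0.000688). The hairpin 2 libraries were below both shNT libraries, but the difference did not pass (-0.20; limma adjusted p = 0.0971) unless shNT replicate 2 was left out (-0.26; 0.0232). Of Vcl, 38.4% of 31-base words also belong to transcripts annotated to the overlapping gene Ap3m1, so its values are uncertain.

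The LIM proteins Zyx and Csrp1 fell as well. Zyx, zyxin, which gathers at strained stress fibres, fell by 0.44 with hairpin 1 (limma adjusted p = 0.00173), from 43.8 ± 1.90 to 32.1 ± 0.956 TPM (SD, n = 2), and was at 37.5 ± 0.884 TPM with hairpin 2. Csrp1, a cysteine-rich LIM protein, read 131 and 129 TPM for shNT, 103 and 102 for hairpin 1, and 104 and 100.3 for hairpin 2. All hairpin libraries were below shNT and overlapped each other. Csrp1 fell by 0.33 and fell by 0.34 with hairpins 1 and 2 (limma adjusted p = 0.00212 and 0.0185), the latter lost when any 1 hairpin library was left out (0.0652 to 0.149).

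Other core adaptors moved little. Pxn, paxillin, was at 37.4 to 40.9 TPM over the 6 libraries and Parva, alpha-parvin, at 32.7 to 37.8 TPM, and neither passed in any of the 4 comparisons. Tln1, the main talin, was at 46.8 ± 2.19 TPM for shNT, 40.6 ± 1.746 for hairpin 1 and 49.1 ± 0.342 for hairpin 2 (SD, n = 2). Its fall of -0.20 with hairpin 1 (log2; limma adjusted p = 0.0258) was lost without shNT replicate 1 or any 1 hairpin library (0.0545 to 0.142).

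Ilk, the integrin-linked pseudokinase, was lowest with hairpin 2, at 63.9 ± 1.41 TPM, against 77.5 ± 3.56 for shNT and 72.3 ± 0.0167 for hairpin 1 (SD, n = 2). The fall of -0.27 with hairpin 2 (log2; limma adjusted p = 0.0325) was lost without any 1 hairpin library (0.0847 to 0.191). Of Ilk, 73.4% of 31-base words occur in transcripts of other genes, chiefly Taf10, so its values are uncertain.

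**Figure D3:**
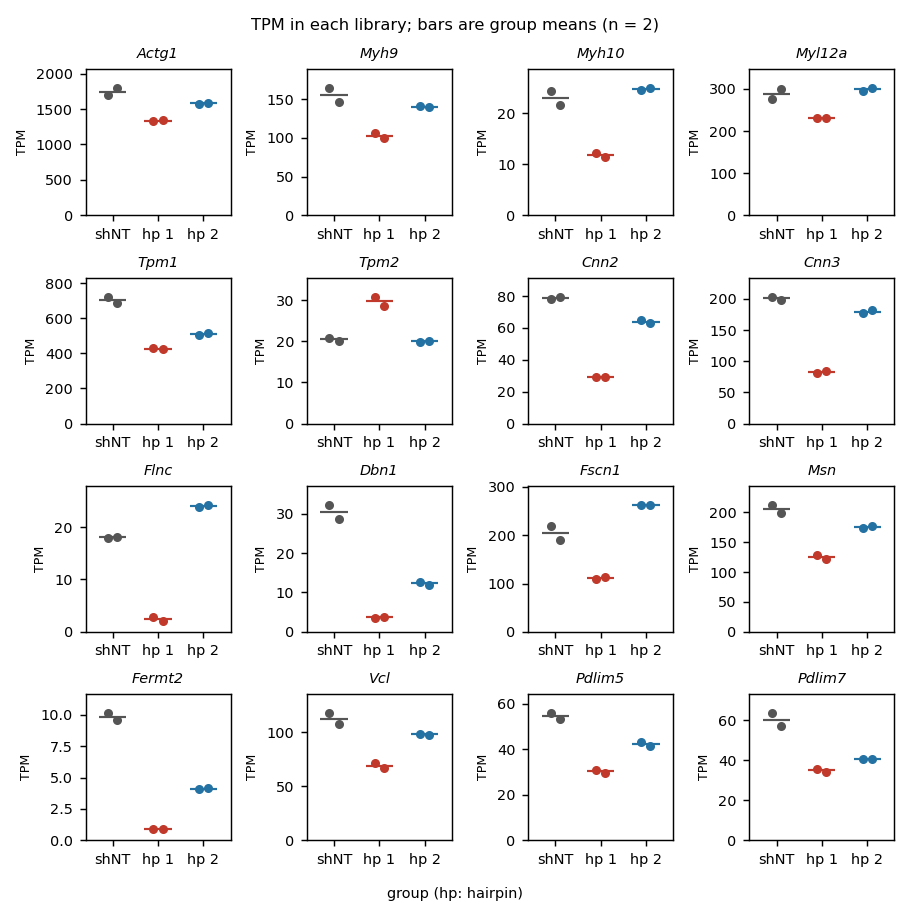
TPM in each of the 6 libraries for 16 members chosen by size of difference; points are libraries, bars are means of 2, and each axis starts at 0. The hairpin 1 points are the lowest in every panel except Tpm2, where they are the highest, and in Flnc, Fscn1 and Myh10 the hairpin 2 points are above shNT.

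Within families of related proteins, the balance of members differed between the groups. Flnc was 7.30% ± 0.150 of the TPM of Flna and Flnc for shNT, 1.41% ± 0.243 for hairpin 1 and 9.97% ± 0.00257 for hairpin 2 (SD, n = 2). Actn1 was 41.0% ± 0.641 of the alpha-actinins for shNT, 30.3% ± 0.212 for hairpin 1 and 36.7% ± 0.596 for hairpin 2. Myh10 was 12.9% ± 0.0901 of the 2 myosin heavy chains for shNT, 10.3% ± 0.0146 for hairpin 1 and 15.0% ± 0.196 for hairpin 2. In these 3 families the shares of the 3 groups did not overlap.

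Among the tropomyosins Tpm1 was 35.4% ± 0.197 of the sum for shNT, 28.0% ± 0.0160 for hairpin 1 and 30.0% ± 0.134 for hairpin 2 (SD, n = 2). Tpm3 was 39.6% ± 0.166, 46.9% ± 0.260 and 45.1% ± 0.130 in that order, and Tpm2, the least abundant, 1.03% ± 0.0178, 1.96% ± 0.0834 and 1.19% ± 0.00473. Tpm3 shares 46.0% of its 31-base words with the entry Tpm3-rs7 and Tpm4 20.5% with other genes, so these shares are uncertain. In the ezrin family the share of Msn was 29.7% ± 0.142, 19.7% ± 0.471 and 25.6% ± 0.125 for shNT, hairpin 1 and hairpin 2, and that of Ezr 62.6% ± 0.240, 74.4% ± 0.563 and 67.7% ± 0.0465.

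Cnn3 was 71.8% ± 0.692 of calponin TPM for shNT, 73.9% ± 0.487 for hairpin 1 and 73.7% ± 0.792 for hairpin 2 (SD, n = 2). Pdlim7 was 52.5% ± 1.04 of the sum with Pdlim5 for shNT, 53.5% ± 0.163 for hairpin 1 and 49.0% ± 0.475 for hairpin 2. Actg1 was 36.0% ± 2.28 of the cytoplasmic actins for shNT, 35.5% ± 0.0756 for hairpin 1 and 34.4% ± 0.0369 for hairpin 2, which differ by less than the spread of shNT. With 2 libraries a group an exact test of a share cannot pass the threshold, and none was made.

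**Figure D4:**
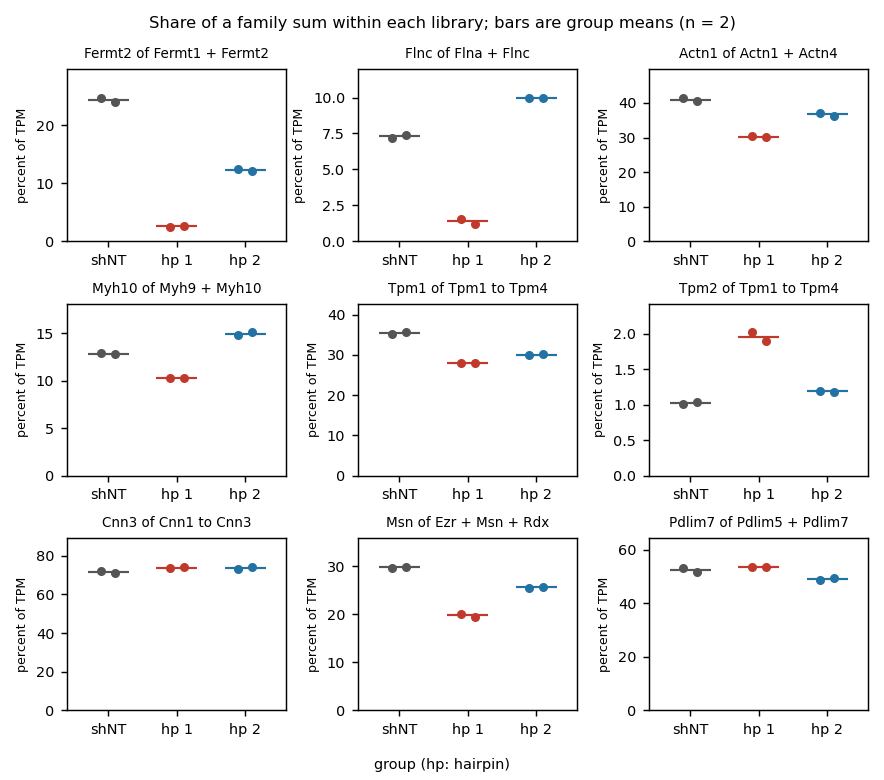
Share of 1 gene in the summed TPM of its family within each library, in percent; points are libraries, bars are means of 2, and each axis starts at 0. Fermt2, Flnc and Actn1 have their lowest share with hairpin 1, while Cnn3 lies between 71.3% and 74.3% in all 6 libraries.

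Genes that assemble or steer filaments, from lists of the pathway without the members, are given beside them. Of 66 such genes tested, 14 fell and 17 rose in the knockdown comparison (all genes 12.1% and 27.3%). After median-ratio scaling 22 fell and 7 rose (all genes 18.8% and 15.1%). The share that rose was near that of all genes on deposited TPM and below it after scaling. The share that fell was above that of all genes on both scales. The median of these 66 genes was -0.055 relative to all genes. With hairpin 1, 20 rose and 21 fell (all genes 32.1% and 18.1%), and with hairpin 2, 2 rose and 2 fell (all genes 6.62% and 3%). In the Arp2/3 complex, which nucleates branched filaments, 6 of 9 subunits rose and 0 fell on deposited TPM, but 2 rose and 1 fell after median-ratio scaling, and 0 rose and 1 fell without small-RNA entries. Its subunits Arpc3 and Arpc1b were at 0.31 and 0.30 (log2; limma adjusted p = 0.00625 and 0.0104), calls lost without small-RNA entries (0.130 and 0.206). Of the 9 subunits, 0 were called with hairpin 2 (all genes 6.62% higher and 3% lower).

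Of formins, WASP family and capping genes 5 of 17 rose and 4 fell, or 1 and 4 after median-ratio scaling (all genes 27.3% and 12.1%, or 15.1% and 18.8%). With hairpin 2 limma called 0 of 17 (all genes 6.62% higher and 3% lower). Fmnl1, a formin, averaged 20.9, 34.7 and 24.0 TPM for shNT, hairpin 1 and hairpin 2, and rose by 0.45 in the knockdown comparison (limma adjusted p = 0.00230). Fmnl2, a related formin, fell by 0.27 (limma adjusted p = 0.0108), a call lost after chromosome centring (0.0930). The calls of Daam1 (0.34; limma adjusted p = 0.0218) and Wasf1 (-0.29; 0.0311) depended on which libraries were kept. That of Daam1, a formin, was lost without shNT replicate 2, hairpin 1 replicate 1 or either hairpin 2 library (0.0581 to 0.0775). That of Wasf1, which activates Arp2/3, was lost without any 1 library other than hairpin 2 replicate 1 (0.0507 to 0.126).

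Among other focal adhesion proteins 4 of 17 rose and 4 fell in the knockdown comparison (all genes 27.3% and 12.1%). With hairpin 1, 4 rose and 7 fell (all genes 32.1% and 18.1%), while with hairpin 2 limma called 0 of 17 (all genes 6.62% and 3%). The differences that follow are from the knockdown comparison. Lpp, a relative of zyxin, fell by 0.59 ± 0.058 (log2, SE; limma adjusted p = 0.00221), with means of 12.4, 5.51 and 11.2 TPM for shNT, hairpin 1 and hairpin 2. Src, a kinase of focal adhesions, fell by 0.45 ± 0.043 (limma adjusted p = 0.00208). Tns1, tensin 1, rose by 0.76 ± 0.061 (log2, SE; limma adjusted p = 0.00137), with means of 2.35, 7.57 and 2.74 TPM for shNT, hairpin 1 and hairpin 2. Lims2, PINCH-2 of the ILK complex, is counted among those that rose but passed the filter on low values only through the hairpin 1 libraries, with means of 0.392, 5.46 and 0.387 TPM in that order.

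Of SRF and its MRTF cofactors 1 of 3 tested genes fell and 0 rose in the knockdown comparison (all genes 12.1% and 27.3%). With hairpin 1, 3 fell (all genes 18.1%), and with hairpin 2, 1 fell (all genes 3%). Srf averaged 29.2 TPM for shNT, 23.3 for hairpin 1 and 24.5 for hairpin 2, and fell by 0.28 ± 0.037 in the knockdown comparison (log2, SE; limma adjusted p = 0.00459). Mkl1 and Mkl2, which encode MRTF-A and MRTF-B, averaged 15.1 and 5.27 TPM for shNT, 11.8 and 3.92 for hairpin 1, and 15.8 and 5.15 for hairpin 2. Myocd, the cofactor of smooth muscle, had group means of 0.0312, 0.0218 and 0.0466 TPM.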

How the data were processed

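RNA was extracted with a Qiagen kit and libraries were made by Novogene, per the labels' protocols. The authors deposited TPM for 24493 genes, each library summing to 1000000. The submitters' processing notes name Salmon, R 3.5, DESeq2 and the build mm10; other steps are not given in the sources used here. Groups come from sample titles.

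Deposited TPM were used unscaled. Genes with at least 1 TPM in at least 2 libraries (11549) were tested on the log2(TPM + 1) scale, which understates changes of low genes, with limma 3.58.1 in R 4.3.3: 3 group means over all 6 libraries, a variance prior following mean expression, and Benjamini-Hochberg adjustment over all genes tested at 0.05. The code was tested on simulated data. Members and lists were chosen with earlier results of these data known. Values per library are given for the 3 members of each group with the largest called differences (knockdown and between hairpins) and for members with opposite calls; Actb and other members given per library were added after their values were seen. From each pathway list up to 2 called genes per direction are named, and Mkl1, Mkl2 and Myocd were added. The genes of 1 pathway list are counted in the total but not reported here by name. Gene positions and 31-base words come from GENCODE M21 (same build), which placed 98.8% of tested genes. Alternatives covered pseudocounts, filters, scaling, variance prior, replicate block, compared groups alone, chromosome centring, pooled hairpins and omission of each library.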

Additional observations from a re-analysis of the deposited data

How the results depend on the processing

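Depth is unknown, the n is 2 a group, and pooling the hairpins as 1 group left 0 members higher and 0 lower in the knockdown comparison by limma (13 of 39 at unadjusted p under 0.05). Apart from that fit, 19 of 27 calls in the knockdown comparison, 24 of 31 with hairpin 1, 0 of 10 with hairpin 2 and 18 of 29 between the hairpins held in each alternative run. Members called higher in the knockdown comparison numbered 4 in the fit as designed, 2 after median-ratio scaling, 0 without small-RNA entries and 1 after chromosome centring. With hairpin 1 they numbered 5, and 2 after median-ratio scaling, 2 without small-RNA entries, 3 after chromosome centring and 3 with only the groups compared. With hairpin 2 the 1 member called higher, Fscn1, became 0 without the filter, after median-ratio scaling, without small-RNA entries, with a variance prior without trend, after chromosome centring and with only the groups compared; the 9 called lower became 15 after median-ratio scaling and 2 with only the groups compared. Between hairpins the 4 called lower became 2 without small-RNA entries. The cause of these shifts was not tested. Over the whole table calls moved as well. Genes called higher in the knockdown comparison numbered 3149 of 11549 as designed, 1741 of 11535 after median-ratio scaling and 967 of 11611 without small-RNA entries. In that order they numbered 3702, 2612 and 1713 with hairpin 1, and 765, 245 and 147 with hairpin 2. Genes called lower with hairpin 2 went from 347 to 556 after median-ratio scaling, and between hairpins from 2329 to 1452 without small-RNA entries. Shares of all genes in the other fits of this section are not given. There a shift of the whole table cannot be told apart from a shift of the members.

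Leaving out 1 library at a time gave 2 to 6 members higher and 19 to 25 lower in the knockdown comparison, 2 to 7 and 22 to 28 with hairpin 1, 0 to 5 and 0 to 17 with hairpin 2, and 16 to 27 and 2 to 5 between hairpins. Calls lost in this way (lone libraries were assumed to vary like the other groups) concerned 6, 7, 10 and 11 members in these comparisons, at limma adjusted p up to 0.125, 0.238, 0.210 and 0.211. Among called members and those given per library with their tests, signs turned for Actn4 in the knockdown comparison (-0.023 without small-RNA entries, -0.054 after chromosome centring) and with hairpin 1 (-0.026 and -0.065). With hairpin 2 they turned, without a call in the fit as designed, for Myh10 (-0.026 without small-RNA entries, -0.031 after chromosome centring), Myl12a (-0.041 after median-ratio scaling, -0.080 without small-RNA entries, -0.11 after chromosome centring, -0.0046 without shNT replicate 1 and 0.11 without replicate 2, its range over single libraries) and Actb (0.018 without shNT replicate 1). Median-ratio scaling also turned the sign of differences that were called in neither fit, for Fermt1 (knockdown), Pxn and Tagln2 (hairpin 1), Myl6 and Tln1 (hairpin 2) and Csrp1 (between hairpins).

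Same-numbered libraries did not deviate together over the genes tested (correlations 0.021, 0.015 and -0.044). No label says what the replicate number stands for, and these values cannot show whether a culture or preparation was shared. With the replicate number as a replicate block 0 members were higher and 6 lower with hairpin 2, and 3 higher and 23 lower in the knockdown comparison. It gave 5 and 26 with hairpin 1 and 24 and 4 between the hairpins.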
